A study of Mus musculus with 8 samples.

Results

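ATP-binding cassette (ABC) transporter genes were described in mouse blood progenitors with and without a working Cbfb gene. The set was chosen by symbol: every gene of the array's annotation named Abca to Abcg followed by a number, on rows that carried exactly 1 gene symbol. This gave 48 genes (49 rows, since Abcb5 has 2) of 19938 genes in all. By subfamily letter there were 16 A, 9 B, 10 C, 3 D, 1 E, 3 F and 6 G genes. Abcb5 is given by the row that was higher on average across the arrays. The ABC genes Tap1, Tap2 and Cftr carry other symbols and lie outside the set.

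Total RNA was hybridised to 8 Mouse Gene 1.0 ST arrays (Affymetrix), whose probes are spread along each gene. KO GMP (2 arrays) and KO LSK (2 arrays) came from bone marrow of mice with Vav1-iCre and the genotype Cbfb(F/F), in which both Cbfb alleles are floxed. Het GMP (2 arrays) and Het LSK (2 arrays) came from mice with the same Cre and the genotype Cbfb(F/+), so the controls also carry Cre and 1 floxed allele, and no group has 2 intact alleles without Cre. All mice were 7 weeks old and backcrossed to C57BL6, and both cell types were sorted from the same 2 KO and 2 Het mice, about 200000 cells per sample at over 98% purity. Vav1 regulatory sequence drives Cre in blood cells from the stem cell on, so the deletion precedes both populations. LSK cells are the bone marrow fraction that holds stem cells and early multipotent progenitors, and GMP are granulocyte-macrophage progenitors. The labels number the samples but do not say which number is which mouse.

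ABC transporters use ATP to move substrates across membranes. Subfamily A moves lipids, B holds the P-glycoproteins and mitochondrial and peptide transporters, C the multidrug resistance proteins that export conjugates and nucleotides, D the peroxisomal fatty acid importers, and G short lipid and drug pumps that work as pairs. Subfamilies E and F have ATPase domains without membrane spans and act in ribosome recycling and translation. Blood stem cells are known for exporting Hoechst dye, through ABCG2, and rhodamine, through P-glycoprotein. CBFB, the gene deleted here, encodes the partner that helps the RUNX transcription factors bind DNA.

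Values are log2 expression, on which 1 unit is a factor of 2. Cbfb itself had 6.48 and 6.96 in KO GMP, against 7.53 and 7.65 in Het GMP. It had 6.93 and 6.98 in KO LSK, against 7.56 and 7.55 in Het LSK. The difference passed in GMP (-0.86 ± 0.16 SE, limma adjusted p = 0.013) and not in LSK (-0.60 ± 0.16 SE, adjusted p = 0.0557), and whether its probes lie in the deleted part is not known here. The summed level of 9 GMP marker genes was 93.0 to 94.3 in KO GMP and 95 to 95.3 in Het GMP, against 66.4 to 69.8 in KO LSK and 68.2 to 71.3 in Het LSK, which fits the labels. The 9 measured stem cell markers summed to 59.9 to 61.2 in KO GMP and 54.0 to 54.9 in Het GMP, against 67.4 to 71.7 in KO LSK and 74.9 to 77.7 in Het LSK. Over all rows, correlations were 0.990 to 0.995 between arrays within a group and 0.955 to 0.983 between groups. With 2 arrays a group an exact permutation test cannot go below p = 0.333, so all tests are limma's moderated test over the 8 arrays, adjusted by Benjamini-Hochberg over 21789 rows and passed at an adjusted p under 0.05. A gene's low value is not a call of absence, since these values have no 0 and no detection call.

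Promoter sequences are shown for 3 genes whose values are central below. Abcg2 and Abca13 are the members that differed by genotype and hold the core RUNX motif in the form searched. Abcb1b is the member that differed in both cell types. The sequences are from RefSeq, mouse build GRCm38.p6, from 250 bases before to 50 bases after a gene's start. They are written 5′ to 3′ on the gene's strand, with the motif TGTGGT or its reverse complement ACCACA in capitals. Other forms of the motif were not searched or marked. The Abcg2 stretch is chr6:58584283-58584582 (+), 1 of 3 promoters listed for that gene and the one of them that holds the motif, the Abca13 stretch is chr11:9191692-9191991 (+), and the Abcb1b stretch is chr5:8797897-8798196 (+).
Abcg2: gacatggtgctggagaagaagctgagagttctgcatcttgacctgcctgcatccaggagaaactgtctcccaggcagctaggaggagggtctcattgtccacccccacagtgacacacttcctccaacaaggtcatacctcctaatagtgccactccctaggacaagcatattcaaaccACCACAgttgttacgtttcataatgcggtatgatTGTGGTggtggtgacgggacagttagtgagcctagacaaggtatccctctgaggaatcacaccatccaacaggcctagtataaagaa
Abca13: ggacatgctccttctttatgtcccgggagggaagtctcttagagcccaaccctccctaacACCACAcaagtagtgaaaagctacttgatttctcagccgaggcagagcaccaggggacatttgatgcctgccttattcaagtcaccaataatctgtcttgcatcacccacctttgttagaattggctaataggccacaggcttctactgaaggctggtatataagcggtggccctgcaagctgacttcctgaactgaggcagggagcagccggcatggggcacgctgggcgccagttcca
Abcb1b: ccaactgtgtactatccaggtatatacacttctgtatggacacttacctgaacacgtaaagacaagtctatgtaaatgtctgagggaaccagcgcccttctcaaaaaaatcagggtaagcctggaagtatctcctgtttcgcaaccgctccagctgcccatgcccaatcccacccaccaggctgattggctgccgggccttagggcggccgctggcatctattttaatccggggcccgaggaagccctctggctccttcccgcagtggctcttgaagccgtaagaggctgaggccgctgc

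The motif begins at positions -71 and -37 of the Abcg2 stretch and at -190 of the Abca13 stretch, counting the base before the start as -1. The Abcb1b stretch does not hold these letters. Promoters were listed for 38 of the 48 genes, and 7 of those 38 genes (18.4%) hold the motif in at least 1 promoter, beside 18.9% of all 27025 genes with a promoter. Among the genes that passed in KO against Het in either cell type, 9 had a promoter and 2 of them (22.2%) hold it. A match is a description of the letters and not a binding site.

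In GMP, 4 genes rose in KO (Abcb4, Abca4, Abcg3 and Abcg2), beside 3.45% of all rows, 2 fell (Abca13 and Abcb1b), beside 2.57%, and 42 did not pass. In LSK, 1 gene rose in KO (Abcc4), beside 3.02% of all rows, 5 fell (Abcb1b, Abca1, Abcc1, Abca2 and Abcb8), beside 4.71%, and 42 did not pass. The members that passed made up 12.5% in each cell type, beside 6.02% of all rows tested in GMP and 7.73% in LSK. The median difference over the 48 genes was -0.0078 in GMP, beside -0.0173 over all rows, and -0.02 in LSK, beside 0.0096 over all rows. Abcb1b passed in both cell types, 10 other genes in 1 of them, and 37 in neither. Over all rows, 1.5% passed as higher and 1.21% as lower in both cell types. The share of all rows that passed in either cell type was not counted, so the number of members that did cannot be called high or low. With array medians subtracted, the LSK calls split into 2 higher and 3 lower (40.0% higher, against 16.7% as deposited), and the median of all rows shifted by 0.1552 in Het GMP against Het LSK and by -0.1377 in the difference of the genotype effects.

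**Figure D1:**
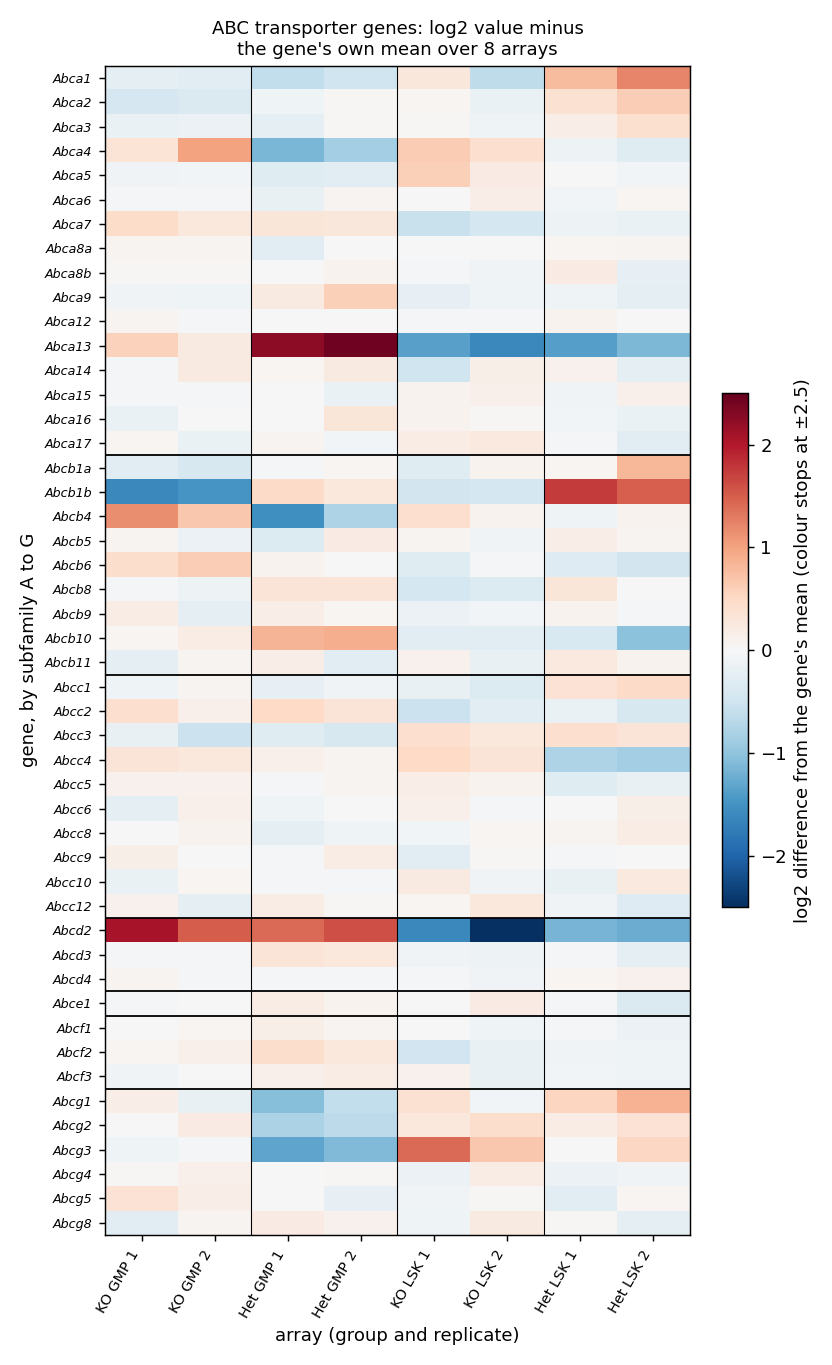
Each row is 1 of the 48 ABC genes, ordered by subfamily, and each column 1 array, with KO and Het GMP on the left and KO and Het LSK on the right. Colour is the log2 value minus the gene's own mean over 8 arrays, so levels of different genes are not compared. Most rows are pale, while Abca13 and Abcd2 split by cell type and Abcb1b is low in all 4 KO arrays relative to Het arrays of the same cell type.

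The groups did not overlap for 13 genes higher and 13 lower in KO GMP, and for 11 higher and 16 lower in KO LSK. Over all rows, 51.3% did not overlap in GMP and 45.5% in LSK, so separated pairs of arrays are common here. The genotype effect in GMP differed from that in LSK for 3 genes, 6.25% of the members beside 2.29% of all rows. It was higher for Abcb4 (1.69% of all rows) and lower for Abca13 and Abcc4 (0.601% of all rows). In 5 sets of arrays compared (2 by genotype, 2 by cell type and the difference of the genotype effects), 20 of the 48 genes passed at least once. The other 28 passed in none, and their values over the 8 arrays spanned at most 1.222 log2 units, with a median span of 0.456. Of all rows, 2.29% to 17.5% passed in a single comparison. The share of all rows that passed at least once was not counted, so 20 of 48 cannot be called high or low.

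Among the efflux pumps known from stem cells, Abcg2 rose in KO GMP. Abcg2, the transporter behind the dye-excluding side population, had 6.29 and 6.50 in KO GMP, against 5.51 and 5.64 in Het GMP. In LSK it had 6.57 and 6.75 in KO, against 6.50 and 6.66 in Het. The Het GMP arrays were the low ones, and KO GMP lay close to both LSK groups. The difference was 0.82 ± 0.14 SE in GMP (limma adjusted p = 0.00734) and 0.08 ± 0.14 SE in LSK (adjusted p = 0.816, 95% interval -0.23 to 0.39), and the test of the difference of these effects did not pass (0.74, adjusted p = 0.103). Leaving out Het GMP replicate 1 (adjusted p = 0.0771) or KO GMP replicate 2 (0.0801) ended the GMP call.

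Abcg3 is a rodent gene close to Abcg2 in sequence, so probes of the pair could share signal. It had 5.12 and 5.19 in KO GMP, against 3.92 and 4.14 in Het GMP, and 6.66 and 5.91 in KO LSK, against 5.23 and 5.76 in Het LSK. Both KO groups lay above Het of the same cell type, and the difference passed in GMP (1.13 ± 0.25 SE, limma adjusted p = 0.0305) and not in LSK (0.79, adjusted p = 0.104). Without any 1 of the 4 GMP arrays the GMP call was lost (adjusted p from 0.104 to 0.209), and without KO LSK replicate 2 the LSK difference passed (1.16, adjusted p = 0.0173).

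Abcb1b, one of the mouse genes for P-glycoprotein, the pump that exports rhodamine and many drugs, fell in both cell types. It had 3.6 and 3.74 in KO GMP, against 5.70 and 5.47 in Het GMP, and 4.75 and 4.78 in KO LSK, against 6.97 and 6.70 in Het LSK. Every KO array lay more than 1 log2 unit below every Het array of its cell type. The differences were -1.91 ± 0.14 SE in GMP (limma adjusted p = 9.07e-05) and -2.07 ± 0.14 SE in LSK (adjusted p = 5.62e-05). The genotype effects differed by 0.16 between the cell types, with a 95% interval of -0.29 to 0.61 (adjusted p = 0.836). Abcb1b was the member that passed in both, in a direction that 1.21% of all rows took in both, and the call held under all 16 alternatives.

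Abcb1a, a close paralog of Abcb1b, did not pass. It had 4.04 and 3.92 in KO GMP, against 4.27 and 4.37 in Het GMP, and 4.02 and 4.39 in KO LSK, against 4.36 and 5.15 in Het LSK. The differences were -0.34 in GMP (95% interval -0.87 to 0.20, limma adjusted p = 0.554) and -0.54 in LSK (-1.08 to -0.01, adjusted p = 0.249). Het LSK replicate 2 stood above the other arrays, and without Het LSK replicate 1 the LSK difference was -0.94 and passed (adjusted p = 0.0323). Probes for Abcb1a and Abcb1b could bind both transcripts, which was not checked here, so their separate values are uncertain to that extent.

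Abcb4 is the next protein-coding gene after Abcb1b on chromosome 5, which follows Abcb1a there. It encodes the phosphatidylcholine floppase known from bile canaliculi. Abcb4 had 6.38 and 5.90 in KO GMP, against 3.68 and 4.44 in Het GMP, while it had 5.64 and 5.31 in KO LSK, against 5.13 and 5.31 in Het LSK. The 2 GMP groups did not overlap, with KO above all LSK arrays and Het below them. It rose in KO GMP by 2.07 ± 0.26 SE (limma adjusted p = 0.00151), a call held under all 16 alternatives. The LSK difference was 0.25 (adjusted p = 0.673). The effect in GMP was higher than in LSK by 1.82 ± 0.36 SE (adjusted p = 0.0394), which was lost in 8 of 15 alternatives, among them without either KO GMP array. In GMP the direction was thus opposite in the neighbours Abcb1b and Abcb4.

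**Figure D2:**
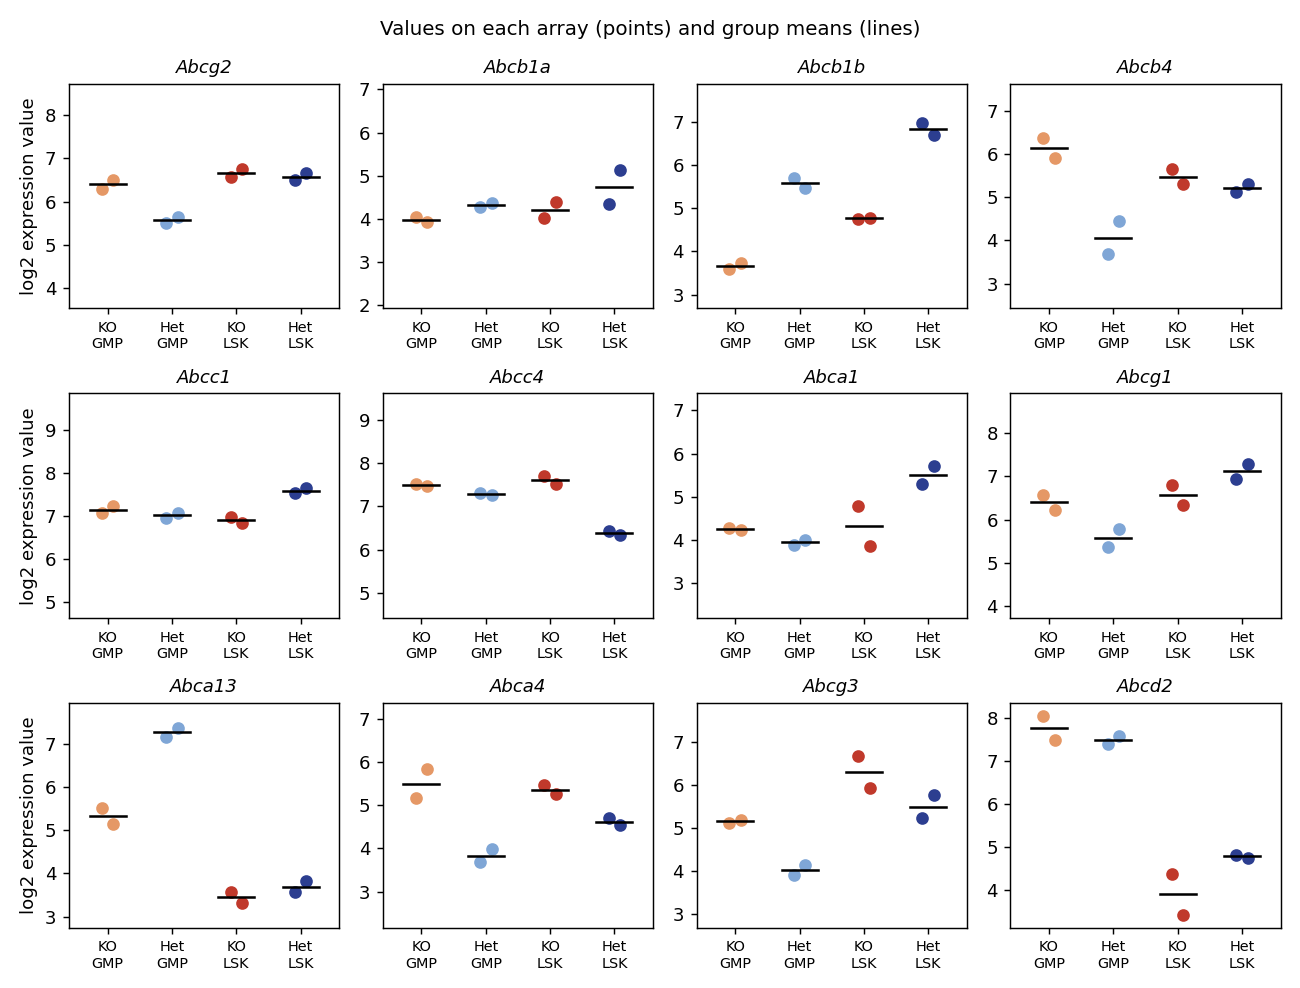
Log2 expression of 12 ABC genes on each array, with points for the 2 arrays of a group, lines for group means and KO left of Het within GMP and within LSK. The scales differ between panels in position and span nearly the same number of log2 units. Abcb1b is low in KO in both cell types, Abcb4 and Abcg2 are high in KO GMP against Het GMP, and Abcc4 is low in Het LSK alone among the 4 groups.

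The multidrug resistance proteins gave 1 rise and 1 fall, both in LSK. Abcc4, which exports cyclic nucleotides and prostanoids and is abundant in platelet granules, had 7.70 and 7.52 in KO LSK, against 6.42 and 6.34 in Het LSK. It had 7.52 and 7.46 in KO GMP, against 7.32 and 7.26 in Het GMP. Het LSK was the low group, and the other groups lay close together. It rose by 1.23 ± 0.12 SE in LSK (limma adjusted p = 0.000298, held under all 16 alternatives), and the GMP difference was 0.20 (adjusted p = 0.457). The effect in GMP was lower than in LSK by a log2 difference of -1.03 ± 0.17 SE (adjusted p = 0.0153), lost in 6 of 15 alternatives with adjusted p up to 0.0782.

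Abcc1, which exports glutathione conjugates and leukotriene C4, had 6.97 and 6.83 in KO LSK, against 7.53 and 7.65 in Het LSK. It had 7.06 and 7.23 in KO GMP, against 6.96 and 7.07 in Het GMP. Here Het LSK was the high group. It fell in KO LSK (-0.69 ± 0.13 SE, limma adjusted p = 0.0107), differed by 0.13 in GMP (adjusted p = 0.69), and the difference of the effects did not pass (0.82, adjusted p = 0.0566). Without Het LSK replicate 2 the LSK call was lost (adjusted p = 0.079). The other 8 subfamily C genes did not pass in either cell type. Abcc8, the sulfonylurea receptor of the pancreatic beta cell, differed by 0.20 in GMP and -0.15 in LSK.

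Of the 16 lipid transporters of subfamily A, 2 passed in each cell type (12.5%, beside 6.02% of all rows in GMP and 7.73% in LSK). Abca1, which loads cholesterol onto apolipoprotein A-I, had 4.78 and 3.86 in KO LSK, against 5.30 and 5.72 in Het LSK. It had 4.27 and 4.23 in KO GMP, against 3.88 and 4.0 in Het GMP. The KO LSK arrays were nearly 1 log2 unit apart, yet both lay below Het LSK. The fall in LSK (-1.19 ± 0.26 SE, limma adjusted p = 0.0271) was lost in 7 of 15 alternatives, with -0.98 without Het LSK replicate 2 (adjusted p = 0.174) and -0.73 without KO LSK replicate 2 (0.0593). Without Het LSK replicate 1 or either Het GMP array it was also lost (0.055 and 0.0525), and the difference in GMP was 0.31 (adjusted p = 0.646).

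Abca2, an endolysosomal lipid transporter, had 7.28 and 7.06 in KO LSK, against 7.61 and 7.84 in Het LSK, and 6.82 and 6.87 in KO GMP, against 7.13 and 7.26 in Het GMP. KO lay below Het in both cell types. The difference passed in LSK (-0.56 ± 0.14 SE, limma adjusted p = 0.0386) and not in GMP (-0.35, adjusted p = 0.214), and the LSK call was lost in 11 of 16 alternatives. These include leaving out either Het LSK array, KO LSK replicate 2 or any GMP array (adjusted p from 0.0616 to 0.22). The mitochondrial transporter Abcb8 was alike in this, with 5.42 and 5.53 in KO LSK, against 6.17 and 5.87 in Het LSK, and 5.80 and 5.74 in KO GMP, against 6.18 and 6.19 in Het GMP. Its LSK fall (-0.55, adjusted p = 0.0396) was also lost in 11 of 16 alternatives, among them without Het LSK replicate 1, either KO LSK array or any GMP array (0.069 to 0.213). Subtracting array medians ended the call for both genes (0.0657 for Abca2 and 0.0886 for Abcb8).

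Abca13, a large transporter of subfamily A, had 5.52 and 5.15 in KO GMP, against 7.16 and 7.37 in Het GMP. It had 3.58 and 3.32 in KO LSK, against 3.56 and 3.82 in Het LSK. KO GMP lay between Het GMP and the LSK arrays. It fell in KO GMP by 1.93 on the log2 scale (SE 0.17, limma adjusted p = 0.000233, held under all 15 alternatives run for it), and the LSK difference was -0.24 (adjusted p = 0.503). The effects differed (-1.69 ± 0.24 SE, adjusted p = 0.00877), a call lost in 1 of 14 alternatives, the test over all rows of the table (adjusted p = 0.0592).

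Abca4, the retinoid transporter known from photoreceptors, had 5.17 and 5.84 in KO GMP, against 3.68 and 3.98 in Het GMP. It had 5.47 and 5.26 in KO LSK, against 4.70 and 4.54 in Het LSK. All 4 KO arrays lay above all 4 Het arrays. The difference was 1.67 ± 0.22 SE in GMP (limma adjusted p = 0.00188, held under all 15 alternatives run for it) and 0.74 in LSK (adjusted p = 0.0799), and the effects were not shown to differ (0.93, adjusted p = 0.205). The LSK difference passed without either KO GMP array (adjusted p = 0.0279) and with the 4 LSK arrays alone (0.0434).

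**Figure D3:**
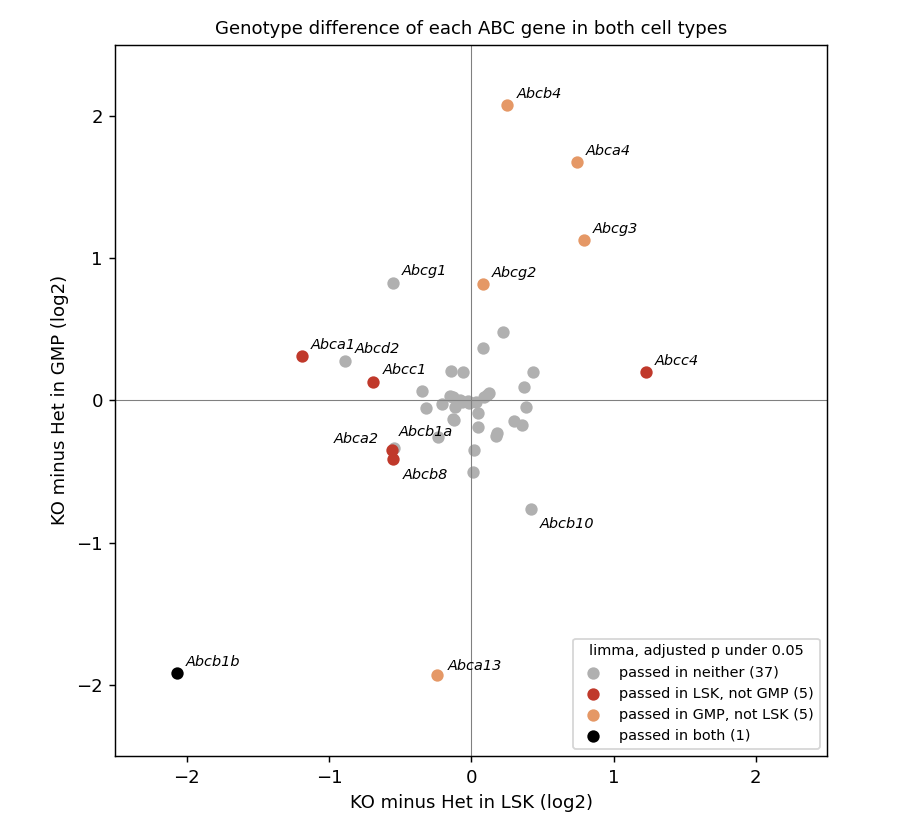
Each point is 1 of the 48 ABC genes, with the KO minus Het log2 difference in LSK on the x axis and in GMP on the y axis. Abcb1b (black) passed in both, 5 genes (orange) in GMP and not LSK, 5 genes (red) in LSK and not GMP, and 37 (grey) in neither. The share of all rows that passed in either cell type was not counted.

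Of the members that did not pass by genotype, Abcg1 and Abcb10 came nearest in GMP. Abcg1, which passes cholesterol to high-density lipoprotein, had 6.58 and 6.22 in KO GMP, against 5.35 and 5.79 in Het GMP, and 6.79 and 6.34 in KO LSK, against 6.94 and 7.29 in Het LSK. The difference was 0.83 in GMP (limma adjusted p = 0.0654) and -0.55 in LSK (adjusted p = 0.202), and the GMP difference passed in 5 of 16 alternatives (adjusted p down to 0.0416). Abcb10, a transporter of the inner mitochondrial membrane needed for heme synthesis, had 5.85 and 5.97 in KO GMP, against 6.64 and 6.71 in Het GMP, and 5.51 and 5.51 in KO LSK, against 5.42 and 4.77 in Het LSK. Its differences were -0.76 in GMP (adjusted p = 0.0548) and 0.42 in LSK (adjusted p = 0.277). The GMP difference passed in 6 of 16 alternatives (adjusted p down to 0.00933). The LSK difference ran from 0.09 to 0.74 with 1 array left out, and passed without Het LSK replicate 1 (0.74, adjusted p = 0.0296).

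Abcb6, a porphyrin transporter, had 5.32 and 5.5 in KO GMP, against 4.98 and 4.89 in Het GMP, a difference of 0.48 that did not pass (limma adjusted p = 0.0857), and 0.22 in LSK (adjusted p = 0.438). Abcd2, which imports fatty acids into peroxisomes, differed by 0.28 in GMP (adjusted p = 0.715) and by -0.88 in LSK (adjusted p = 0.116). Its KO LSK arrays were 4.37 and 3.42, and without KO LSK replicate 1 the LSK difference was -1.36 and passed (adjusted p = 0.00854). Abcd3, its relative for branched and other fatty acids, differed by -0.35 in GMP (adjusted p = 0.155) and 0.02 in LSK (adjusted p = 0.963).

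Abce1, the factor that splits ribosomes after termination, had 8.92 and 8.96 in KO GMP, against 9.13 and 9.04 in Het GMP, and 8.93 and 9.14 in KO LSK, against 8.89 and 8.58 in Het LSK. Its differences were -0.14 in GMP (95% interval -0.46 to 0.18) and 0.30 in LSK (-0.02 to 0.62), and neither passed. The 3 subfamily F genes, which act in translation, did not pass either. Among them Abcf2 had the largest difference, -0.26 in GMP (adjusted p = 0.397) and -0.23 in LSK (adjusted p = 0.405). The subfamily A genes Abca5, Abca7 and Abca9 differed by 0.20, 0.07 and -0.50 in GMP, and none of these passed by limma (adjusted p = 0.562, 0.854 and 0.0824). In LSK they differed by 0.43, -0.34 and 0.01 and did not pass (adjusted p = 0.128, 0.147 and 0.982), and Abca5 passed there without KO LSK replicate 2 (adjusted p = 0.0258).

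The genes that differed most between the cell types were Abca13 and Abcd2. In KO, 5 ABC genes rose in GMP against LSK, beside 3.66% of all rows, 3 fell, beside 2.39%, and 40 did not pass. In Het, 8 rose, beside 7.9% of all rows, 10 fell, beside 9.6%, and 30 did not pass. The share that passed was 16.7% in KO and 37.5% in Het, beside 6.05% and 17.5% of all rows. With array medians subtracted, the Het split was 12 higher and 8 lower (60% higher, against 44.4% as deposited). The calls shared by both genotypes, all in the same direction, were 7: Abca13, Abcd2, Abca7 and Abcc2 higher in GMP, and Abcb1b, Abcg3 and Abcc3 lower. They are 87.5% of the 8 called in KO and 38.9% of the 18 called in Het. The same overlap over all rows was not counted, so these shares cannot be called high or low for the array. Calls held under every alternative run (14 or 15 a gene) for 4 genes in KO (Abca13, Abcd2, Abcb1b and Abca7) and for 9 in Het (Abca13, Abcd2, Abcb10, Abcc4, Abcb1b, Abcg2, Abcg3, Abcg1 and Abca1). The other 4 in KO and 9 in Het were each lost without at least 1 array of the groups compared, at adjusted p up to 0.241 in KO and 0.239 in Het.

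Abcd2 had 8.04 and 7.50 in KO GMP, against 4.37 and 3.42 in KO LSK. In Het it had 7.39 and 7.59 in GMP, against 4.82 and 4.74 in LSK. All GMP arrays lay at least 2 log2 units above all LSK arrays. The difference was 3.88 ± 0.29 SE in KO (limma adjusted p = 0.0001) and 2.71 ± 0.29 SE in Het (adjusted p = 0.000269). Abca13 differed by 1.89 ± 0.17 SE in KO (adjusted p = 0.000328) and 3.58 ± 0.17 SE in Het (adjusted p = 6.18e-06), from the array values given above.

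Abca7, a phospholipid transporter linked to phagocytosis, rose in GMP by 0.85 in KO (limma adjusted p = 0.00378) and 0.44 in Het (adjusted p = 0.0351). Abcc2, the canalicular exporter of bilirubin conjugates, rose by 0.67 in KO (adjusted p = 0.0419) and 0.69 in Het (adjusted p = 0.0165). Abcc3, an exporter of glucuronides, fell by 0.71 in KO (adjusted p = 0.0214) and by 0.72 in Het (adjusted p = 0.00872). Of the pumps, Abcb1b fell in GMP against LSK by 1.09 in KO (adjusted p = 0.0023) and by 1.25 in Het (adjusted p = 0.000376), and Abcg3 by 1.13 (adjusted p = 0.0313) and by 1.46 (adjusted p = 0.00362).

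**Figure D4:**
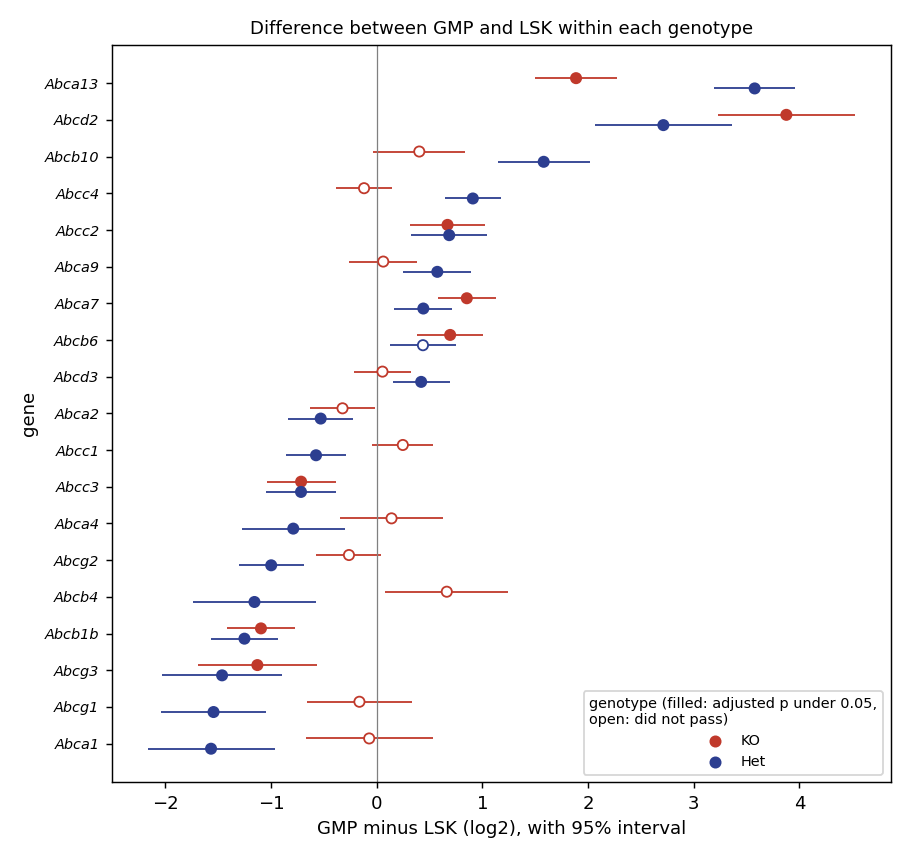
Log2 difference between GMP and LSK, with 95% intervals, for the 19 ABC genes that passed in KO (red) or Het (blue), filled where the adjusted p was under 0.05. Abca13 and Abcd2 lie far to the right in both genotypes, while Abca1, Abcg1 and Abcg2 lie left of 0 in Het and near 0 in KO.

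Several members passed between the cell types in Het but not in KO. Abcg2 differed by -0.26 in KO (limma adjusted p = 0.343) and -1.0 in Het (adjusted p = 0.00109), Abcg1 by -0.16 (adjusted p = 0.759) and -1.54 (adjusted p = 0.00137), and Abca1 by -0.07 (adjusted p = 0.925) and -1.57 (adjusted p = 0.00351). Abcb10 differed by 0.40 in KO (adjusted p = 0.298) and 1.58 in Het (adjusted p = 0.000576). The same interaction term tests whether these differences depend on genotype, and it did not pass for Abcg2 (adjusted p = 0.103), Abcg1 (0.0618), Abca1 (0.0902) or Abcb10 (0.0687). It passed for Abcb4, which differed by 0.66 in KO (adjusted p = 0.195) and -1.16 in Het (adjusted p = 0.0137), for Abcc4 (-0.12 in KO, adjusted p = 0.653, and 0.91 in Het, adjusted p = 0.000839) and for Abca13. The remaining calls in Het were Abcc1 (-0.57), Abca2 (-0.53) and Abca4 (-0.79) lower in GMP, and Abca9 (0.57) and Abcd3 (0.42) higher. In KO, the remaining call was Abcb6, higher in GMP by 0.70 (adjusted p = 0.019).

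Markers of other cell types moved with genotype beside these genes. The summed log2 level of 8 measured megakaryocyte and platelet markers was 68.0 to 70.2 in KO GMP, against 40.8 to 43.7 in Het GMP, and 62.2 to 64.0 in KO LSK, against 49.4 to 49.5 in Het LSK. All 8 rose in KO GMP, and 4 rose and 1 fell in KO LSK. Itga2b, the platelet integrin subunit, had 9.48 and 9.78 in KO GMP, against 5.07 and 5.64 in Het GMP. The part of these cells in the rises of Abcc4, Abcg2, Abcb4, Abca4 and Abcg3 was not tested.

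The summed level of 8 monocyte, macrophage and dendritic cell markers was 37.6 to 42.8 in KO GMP, against 54.0 to 54.9 in Het GMP, with 7 of 8 lower, and 38.2 to 38.8 in KO LSK, against 45.2 to 46.1 in Het LSK, with 4 of 8 lower. The 6 measured B cell markers summed to 28.3 to 31.3 in KO LSK, against 43.9 to 46.9 in Het LSK, and all 6 fell. The 6 T and NK cell markers summed to 23.7 to 25.5 in KO LSK, against 35.3 to 35.8 in Het LSK, with 4 of 6 lower, and to 28.2 to 28.5 in KO GMP, against 29.3 to 30.3 in Het GMP, with 1 lower. The 6 mast cell and basophil markers summed to 35.2 to 37.6 in KO GMP, against 40.3 to 40.7 in Het GMP, with 1 higher and 3 lower, and to 34.3 to 34.4 in KO LSK, against 28.9 to 30.4 in Het LSK, with 2 higher and 1 lower. Of the 6 measured erythroid markers, 2 rose and 1 fell in KO GMP, and 1 rose and 2 fell in KO LSK. Of the 6 endothelial and stromal markers, 1 rose and 1 fell in KO GMP, and 1 rose and 2 fell in KO LSK. Of the 9 stem cell markers, 1 rose and 4 fell in KO LSK. In KO GMP, 2 of them rose and 0 fell by limma (5 at an unadjusted p under 0.05 in either direction). Of the 9 GMP markers, 0 passed between KO and Het GMP by limma (2 at an unadjusted p under 0.05). The part of all these cells in the falls of Abcb1b, Abca13, Abca1, Abcc1, Abca2 and Abcb8 and the ABC rises above was not tested. In bulk samples, fewer cells of a type and less RNA per cell cannot be told apart.

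Genes that work beside the ABC transporters were read from 9 lists. The sterol efflux list, beside Abca1 and Abcg1, had 2 genes higher and 2 lower of 16 in KO GMP, and 2 higher and 4 lower in KO LSK. That is 25% and 37.5% of the list, beside 6.02% and 7.73% of all rows, with a median difference of -0.04 in GMP and -0.12 in LSK. Apoe, the lipoprotein that accepts exported cholesterol, had 11.09 and 10.92 in KO GMP, against 8.03 and 8.39 in Het GMP, and 11.70 and 11.50 in KO LSK, against 9.01 and 9.47 in Het LSK. It rose by 2.79 ± 0.19 SE in GMP (limma adjusted p = 5.98e-05) and 2.36 in LSK (adjusted p = 0.0001). Rxra, a receptor that pairs with the sterol-sensing LXR factors, rose by 0.84 in GMP (adjusted p = 0.00376) and 0.64 in LSK (adjusted p = 0.0132, lost without either Het LSK array or KO LSK replicate 2, at 0.0583 to 0.0768). Cyp27a1, which makes the LXR ligand 27-hydroxycholesterol, fell by 1.24 in GMP (adjusted p = 0.00327) and by 1.33 in LSK (adjusted p = 0.00188). The sterol-regulated factor Srebf2 fell by 0.81 in LSK (adjusted p = 0.0239), a call lost without either Het LSK array (0.108 and 0.121) or without KO LSK replicate 2, where the difference was -0.54 (0.0723).

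The eicosanoid list, whose products Abcc1 and Abcc4 export, had 4 of 21 genes higher and 0 lower by limma in KO GMP (6 at an unadjusted p under 0.05 in either direction), and 3 higher and 3 lower in KO LSK. The share that passed was 19.0% in GMP, beside 6.02% of all rows, and 28.6% in LSK, beside 7.73%, with a median difference of -0.10 in GMP and -0.13 in LSK. Alox12, the platelet 12-lipoxygenase, had 6.79 and 7.16 in KO GMP, against 3.56 and 3.91 in Het GMP. It rose by 3.24 ± 0.19 SE in GMP (adjusted p = 4.24e-05), and in LSK the difference was 0.55 (adjusted p = 0.144). Ptger3, a prostaglandin E2 receptor, rose by 2.22 in GMP (adjusted p = 5.46e-05) and 1.35 in LSK (adjusted p = 0.000465). Tbxas1, thromboxane synthase, rose by 1.37 in GMP (adjusted p = 0.00635), a call lost without Het GMP replicate 1. Ptger4, another receptor of that ligand, fell by 1.04 in LSK (adjusted p = 0.0094), lost without either Het LSK array. Alox12 and Tbxas1 are also known as platelet genes, and the platelet markers given above rose in the same arrays. The part of platelet-type cells in the rises of this list was not tested.

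The glutathione list had 2 higher and 1 lower of 17 in KO GMP (17.6%, beside 6.02% of all rows), and 2 higher and 4 lower in KO LSK (35.3%, beside 7.73%). Its median difference was -0.20 in GMP and -0.24 in LSK. Gclm, the regulatory subunit of glutathione synthesis, rose by 0.85 in GMP (limma adjusted p = 0.00988). Ggt5, which cleaves leukotriene C4, fell by 1.66 in LSK (adjusted p = 0.000537), and Gsta4, a glutathione transferase, fell by 1.63 there (adjusted p = 0.000218). Mgst1, a microsomal transferase, fell by 1.16 in GMP (adjusted p = 0.0415). The call of Gclm was lost without either replicate 2 of GMP (0.0921 without Het and 0.089 without KO) and with all rows tested. The call of Mgst1 was lost in 6 of 16 alternatives, among them without either Het GMP array, either Het LSK array or KO GMP replicate 2, where the difference was -0.80 (adjusted p from 0.0703 to 0.25).

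The list of 14 regulators of drug pump genes had 1 higher and 1 lower in KO GMP (14.3%, beside 6.02% of all rows), and 1 lower in KO LSK (7.14%, close to the 7.73% of all rows). Esr1, estrogen receptor alpha, had 4.91 and 4.33 in KO GMP, against 6.27 and 6.22 in Het GMP, and 4.69 and 4.71 in KO LSK, against 6.97 and 7.20 in Het LSK. It fell by 1.62 in GMP (limma adjusted p = 0.000893) and by 2.38 in LSK (adjusted p = 9.5e-05). Foxo1, a transcription factor of stress resistance, rose by 1.77 in GMP (adjusted p = 0.000228), with a difference of -0.27 in LSK (adjusted p = 0.394), and the effects differed (2.04, adjusted p = 0.00294).

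In the other 5 lists, at most 1 gene passed in a cell type. That is 0% to 7.14% of a list in GMP and 0% to 10% in LSK, beside 6.02% and 7.73% of all rows, so these lists lie near the share over all rows and the genes below are given one by one only as values. Of 18 heme synthesis genes, Flvcr1, a heme exporter, fell by 0.89 in GMP (limma adjusted p = 0.00691) and Alad, an early enzyme of the pathway, by 0.86 in LSK (adjusted p = 0.0338). Of 16 peroxisomal genes, Slc27a2 fell by 1.5 in LSK (adjusted p = 0.00089), and in GMP the largest differences were Crot at 0.52 (adjusted p = 0.0668) and Acox3 at -0.36 (adjusted p = 0.343). Of 14 ribosome recycling partners, Pelo fell by 0.80 in GMP (adjusted p = 0.00524), and in LSK Hbs1l at 0.43 and Gcn1 at -0.25 did not pass. Of 15 peptide loading partners of Tap1 and Tap2, Calr fell by 0.48 in GMP (adjusted p = 0.0455), and in LSK Tapbpl at -0.39 and Psmb9 at -0.31 did not pass. Of 10 other export transporters, Slco3a1 rose by 0.49 in LSK (adjusted p = 0.0423), and in GMP Slc29a1 at -0.67 and Slc29a2 at -0.40 did not pass. Leaving out 1 array ended the calls of Flvcr1 (Het GMP replicate 1 or KO GMP replicate 2), Pelo (either replicate 1 of GMP), Alad (5 of 8 arrays), Calr (6 of 8) and Slco3a1 (7 of 8).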

How the data were processed

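The authors deposited log2 expression values made with RMA, per the submitters' processing notes. Software, version and genome build are not stated there. RMA corrects background, equalises the arrays' distributions and combines the probes of a transcript cluster, so a shift of all transcripts would not be seen and changes of dim genes are understated. RNA was amplified and biotin-labelled with NuGEN kits, per the labels' protocols. Array medians were 4.63 to 4.74 over all rows of the deposited values, and 4.92 to 5.09 over the rows tested. The medians over the rows tested are those subtracted in the alternative fit. The number of arrays limits the precision.

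Of 35556 rows, 21789 had 1 gene symbol and were tested, 1621 had several and 12146 none; 21698 matched the reference table by Entrez number. With limma 3.58.1 (R 4.3.3), lmFit was fitted with 1 mean per group over 8 arrays (4 residual and 4.83 prior degrees of freedom), with eBayes and two-sided p-values, Benjamini-Hochberg adjusted within each of 5 contrasts: KO against Het in GMP and in LSK, their difference, and GMP against LSK in KO and in Het. SE is that of a limma difference, and intervals are 95%. A call is said to be held where it passed under every alternative: array medians subtracted, rows under the median row mean left out (21 members stay, and the others have 1 alternative fewer), all rows tested, eBayes with trend and robust, a replicate block, genotype and replicate number together as a random block (correlation 0.139), 1 cell type's arrays alone, all rows of a gene averaged, and each array left out. Averaging rows changes the values of Abcb5 alone among the members, so it could hardly change the call of another member. For a group that a contrast does not use, leaving out either of its arrays gives the same fit. The number of alternatives therefore overstates how many separate checks a call passed.

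Named genes were the members that passed by genotype, 11 listed pumps and sterol, mitochondrial or ribosome genes (1 is not reported here), the largest differences each way, and the largest per subfamily, 23 measured in all. Those called between GMP and LSK, beside these, were named because each count was spelled out. Members and lists were chosen with earlier results of these data known. The fit was tested on simulated data. P-values rest on a spread between arrays that was pooled over the 4 groups of 2 arrays and moderated over all rows. LSK and GMP came from the same mice, and the main model treated their arrays as independent. The pairing could not be modelled from the labels, which bears on the GMP against LSK contrasts and the interaction.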

Additional observations from a re-analysis of the deposited data

Results flagged for a closer look

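For 3 genes the genotype effect in GMP differed from that in LSK by limma's interaction term. The difference was 1.82 for Abcb4, with KO minus Het at 2.07 in GMP and 0.25 in LSK. It was -1.69 for Abca13, with -1.93 in GMP and -0.24 in LSK. It was -1.03 for Abcc4, with 0.20 in GMP and 1.23 in LSK. Over the alternatives the adjusted p of at least 1 setting missed 0.05 for each of these genes, and none changed sign.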

How the results depend on the processing

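Over the 5 contrasts, 41 member calls were made, of which 19 held under all alternatives, 22 were lost under some and 0 reversed. Counts that moved by over 1.5 times follow, and the cause was not tested unless fewer arrays or rows were used. With array medians subtracted, KO LSK had 2 higher and 3 lower. With low rows left out, KO LSK had 2 higher, the interaction 3 higher and 1 lower, and KO GMP against KO LSK 2 higher. With all rows tested, KO LSK had 2 lower, the interaction 0 either way by limma (1 and 2 over one-symbol rows, where 13 had an unadjusted p under 0.05), GMP against LSK in KO 3 higher and 1 lower, and in Het 4 higher. With trend and robust, or genotype and replicate number together as a random block, the interaction had 3 higher. With LSK arrays alone, KO LSK had 2 higher and 2 lower. With the replicate block, KO LSK had 3 lower and the interaction 0 higher. Same-numbered arrays had deviations correlated at 0.179 (KO GMP and KO LSK), 0.133 (Het GMP and Het LSK) and -0.143 to -0.026 (other pairs), so the numbers are not shown to pair samples. Leaving out 1 array at a time gave 2 to 5 higher and 2 to 3 lower in KO GMP, 1 to 3 and 2 to 5 in KO LSK, 0 to 5 and 1 to 3 in the interaction, 3 to 5 and 1 to 4 in GMP against LSK in KO, and 4 to 10 and 6 to 10 in Het. Differences near 0 changed sign without 1 array: Abca7 in GMP (-0.0309 to 0.1659, below 0 without KO replicate 1), and in LSK Abca9 (-0.052 to 0.0709, below 0 without either replicate 2), Abcd3 (-0.0873 to 0.1221, below 0 without Het replicate 2 or KO replicate 1) and Abcg2 (-0.0097 to 0.1736, below 0 without KO replicate 2). Dim genes lie near the lower end of the scale, where array signal limits what can be seen.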

Other observations

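Partner genes were also compared between the cell types, where 6.05% of all rows passed in KO and 17.5% in Het. Of 17 glutathione genes, 4 rose and 0 fell by limma in GMP against LSK in KO (23.5%, with 6 at an unadjusted p under 0.05), and 5 rose and 3 fell in Het (47.1%). Gsr, glutathione reductase, had 10.34 and 10.16 in KO GMP, against 7.87 and 7.70 in KO LSK, and 9.96 and 9.99 in Het GMP, against 7.23 and 7.32 in Het LSK. It rose by 2.47 in KO (limma adjusted p = 1.47e-05) and 2.70 in Het (adjusted p = 6.18e-06). Of 18 heme synthesis genes, 1 rose in KO (5.56%) and 4 in Het (22.2%), shares near those of all rows. Alas1, the first enzyme of the pathway, rose by 2.99 in KO (adjusted p = 5.6e-06) and 3.09 in Het (adjusted p = 3.83e-06).

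Of 21 eicosanoid genes, 4 rose and 1 fell in GMP against LSK in KO (23.8%), and 5 rose and 8 fell in Het (61.9%). Lta4h, which makes leukotriene B4, rose by 2.30 in KO (limma adjusted p = 4.43e-05) and 1.83 in Het (adjusted p = 5.47e-05), and its receptor gene Ltb4r1 by 1.93 (adjusted p = 0.000493) and 3.0 (adjusted p = 1.97e-05). Whether these differences depend on genotype was not shown for Lta4h or Ltb4r1 (adjusted p = 0.369 and 0.0854). Results of the alternatives are not given for these cell type differences of partner genes.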
